A study of Mus musculus with 27 samples.

Results

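The genes described here encode the potassium, calcium and sodium channels of the islet, with their auxiliary subunits, and the channels of the Trp and calcium store families. They were taken by symbol: every gene whose platform symbol starts with Kcn (Kcnj11 left out), Cacn, Scn with a digit, Trp with c, m or v and a digit, Ryr or Itpr. The rule found 71 genes among the 8251 genes that have probe sets with a single symbol. Each gene was represented by the probe set with the highest mean over the 27 arrays, and no measured difference between groups entered the choice. The names of these probe sets end in a plain _at for 64 genes. They end in _s_at for 3, Trpc4 and Cacna1c among them, in _r_at for 2, Kcnj9 and Kcnq1, in _i_at for 1, Itpr2, and in _f_at for 1, Kcnab2. Probe sequences were not at hand, so how specific each is to its gene could not be checked. The 71 genes comprise 16 voltage-gated, 10 inward rectifier, 5 tandem-pore and 4 calcium-activated potassium channel genes, 6 auxiliary potassium channel subunits, 7 pore and 5 auxiliary subunits of calcium channels, 6 sodium channel pores, 8 Trp genes and 4 genes of the calcium store channels. Trpc4ap, which the symbol rule places among the Trp genes, encodes a protein that binds Trpc4 and is not itself a channel.

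RNA came from pancreatic islets cut out by laser capture from transgenic mice. All mice, untreated ones included, carried MycER, a Myc protein fused to an oestrogen receptor domain that is active only with tamoxifen or its metabolite, and the survival factor BclXL, each driven by an insulin promoter. Arrays came in 9 groups of 3. In 1 group the mice had no drug, in 4 groups islets were taken 2, 4, 8 and 24 h after a single injection of 4-hydroxytamoxifen (4OHT), in 1 group dosing went on daily for 21 days, and in 3 groups islets were taken 2, 4 and 6 days after such a course had stopped (called days off here). The series text names tamoxifen for the long course and the array titles name 4OHT. Neither names a vehicle group, mice without MycER, the age or the strain, so the drug itself cannot be told apart from Myc. An insulin promoter directs both transgenes to beta cells, whereas a captured islet also holds other endocrine, vascular and blood cells. Nothing states that the 3 arrays of a group came from separate mice, so the spread behind each p-value is that between these arrays and may be technical. In the untreated arrays the beta cell hormones Ins2 and Iapp averaged 13.8 and 12.7 on the log2 scale. The other measured beta cell markers lay between 7.06 (Pdx1) and 11.75 (Abcc8). Genes of other cells were bright too: the digestive enzyme gene Cela1 averaged 11.9 and Ppy, pancreatic polypeptide, 11.6.

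Beta cells secrete insulin through electrical activity. Glucose metabolism closes the ATP-sensitive potassium channel, the membrane depolarises, voltage-gated sodium and calcium channels open, and the calcium that enters triggers exocytosis of insulin granules. Voltage-gated and calcium-activated potassium channels then repolarise the membrane. Inositol trisphosphate receptors and ryanodine receptors add calcium from the endoplasmic reticulum, and Trp channels carry cation currents that set excitability. Myc binds DNA with its partner Max, with highest affinity at the E-box letters CACGTG.

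Windows reaching from 250 bases before to 50 after a transcription start were found in the RefSeq table (build GRCm38.p6) for 57 of the 71 genes, 73 windows in all. The letters CACGTG, which read the same on both strands, occurred in 8.22% of these windows and in 7.15% of all 32851 windows in the table. The GC box, GGGCGG or CCGCCC on the printed strand, occurred in 47.9% against 35.7%. Among the 20 windows of genes that passed a test in any comparison below, 2 held CACGTG: 1 of Trpm7, with copies whose first bases lie at -25 and 17 counted from the start, and 1 of Trpm1, at -229. The windows of the 4 genes printed here belong to Trpc4, which had the smallest F test p among the 71, to Trpc4ap and Kcnh2, which fell within hours, and to Trpm7, with its pair of E-boxes. Capitals mark CACGTG and GC boxes, and each run reads 5′ to 3′ on the strand of the gene. Trpc4 is chr3:54155807-54156106 on the plus strand, Trpc4ap chr2:155692335-155692634, Kcnh2 chr5:24329542-24329841 and Trpm7 chr2:126876212-126876511, all 3 on the minus strand. The Kcnh2 and Trpc4 windows each belong to a start inside the gene. Annotated extents are chr5:24319589-24351684 for Kcnh2 and chr3:54155584-54318471 for Trpc4, so the printed Trpc4 window lies wholly within its gene.
Trpc4: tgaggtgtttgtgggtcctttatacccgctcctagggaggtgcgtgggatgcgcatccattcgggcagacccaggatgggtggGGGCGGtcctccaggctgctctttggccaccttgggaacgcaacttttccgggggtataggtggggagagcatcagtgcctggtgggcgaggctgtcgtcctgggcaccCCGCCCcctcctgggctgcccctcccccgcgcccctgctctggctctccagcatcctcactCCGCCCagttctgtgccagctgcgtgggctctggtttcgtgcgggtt
Trpc4ap: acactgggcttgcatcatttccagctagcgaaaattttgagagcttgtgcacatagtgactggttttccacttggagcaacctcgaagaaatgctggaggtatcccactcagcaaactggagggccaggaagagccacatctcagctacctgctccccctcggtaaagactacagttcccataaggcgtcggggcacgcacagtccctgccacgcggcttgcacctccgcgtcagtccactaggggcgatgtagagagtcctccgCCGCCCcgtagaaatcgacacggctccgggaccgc
Kcnh2: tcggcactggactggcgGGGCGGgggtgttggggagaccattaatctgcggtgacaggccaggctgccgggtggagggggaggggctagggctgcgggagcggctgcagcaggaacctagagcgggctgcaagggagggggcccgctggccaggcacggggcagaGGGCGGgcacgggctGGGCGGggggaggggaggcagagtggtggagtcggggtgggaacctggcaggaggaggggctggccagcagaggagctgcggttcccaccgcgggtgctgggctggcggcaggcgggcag
Trpm7: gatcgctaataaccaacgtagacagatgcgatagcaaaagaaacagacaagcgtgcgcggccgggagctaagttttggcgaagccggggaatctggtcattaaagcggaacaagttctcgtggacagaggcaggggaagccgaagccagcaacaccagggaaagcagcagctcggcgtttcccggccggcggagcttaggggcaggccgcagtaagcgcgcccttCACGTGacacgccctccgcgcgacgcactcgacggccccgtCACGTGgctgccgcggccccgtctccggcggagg
None of the Trpc4, Trpc4ap and Kcnh2 windows holds CACGTG. These are matches of letters in a window and say nothing of binding.

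Array medians lay between 6.91 and 7.01 on the log2 scale, arrays of a group correlated at 0.957 to 0.992 over all probe sets, and no 2 arrays held the same values. The log2 signal of the 3′ probe set of Gapdh minus that of its 5′ probe set, a measure of how evenly the RNA was copied along its length, was less even. It lay between 3.65 and 5.67 on untreated arrays, 3.70 and 3.90 at 24 h, 4.77 and 4.92 at 21 days, and 3.46 and 4.06 at 4 days off. With it as a covariate 7 of the 24 called changes below were lost, and they are named beside their comparison. Islet purity also varied. The mean of 11 acinar markers, genes of the digestive-enzyme cells around the islet, was 9.13 ± 1.51 (SD, n = 3) in untreated arrays, 11.66 ± 0.27 at 24 h and 7.55 ± 0.41 at 21 days. The mean of 17 leukocyte markers stood more than 0.5 above its overall mean on 3 arrays, which were 2 h replicate 1, 8 h replicate 3 and 6 days off replicate 1. In bulk islet tissue, fewer cells of a type and less RNA per cell cannot be told apart.

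Channel genes gave dim signals. The median of their mean log2 levels was 5.96, against 7.0 over all 12422 probe sets tested. As a background, 34 negative control probe sets (bacterial, yeast and antisense) had means from 3.58 to 7.53 with a median of 4.95. Only 10 of the 71 channel genes exceeded the highest of them, as 39.6% of all tested probe sets did. That highest control was an antisense one. Above every bacterial control lay 16 of the 71 and above every yeast control 60, and 54 exceeded the median of all 34. Trpc4ap was brightest at 10.64. It was followed by Kcnn1 at 9.0, a small-conductance calcium-activated potassium channel, Kcnh2 at 8.70, the ERG channel that repolarises excitable cells, and Itpr2 at 8.56, an inositol trisphosphate receptor. Kcnq1, the pore of the slow delayed rectifier, was at 8.13, and Kcnd3, an A-type potassium channel, at 8.01. Cacna1c, the L-type calcium channel pore on which insulin secretion of mouse beta cells largely depends, was also at 8.01. The tandem-pore leak channels Kcnk4 and Kcnk1 stood at 7.87 and 7.83, and the inward rectifier Kcnj4 at 7.78. These are array levels and do not rank transcripts between genes.

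**Figure D1:**
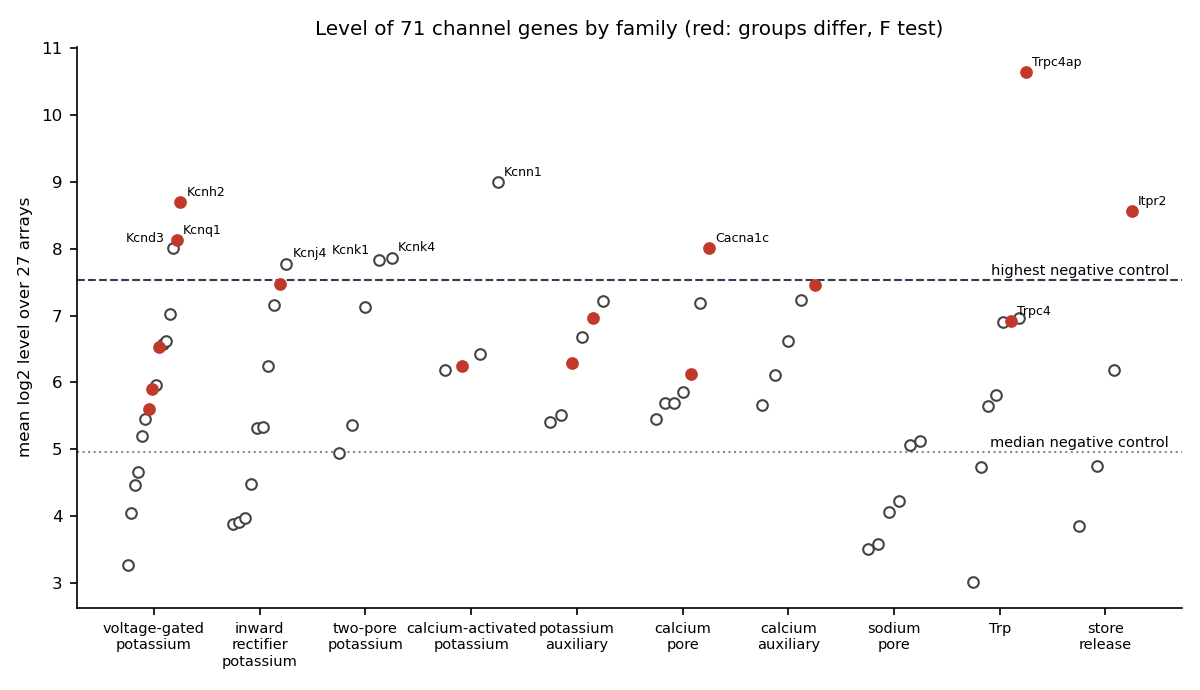
Mean log2 level over 27 arrays of each of the 71 channel genes, arranged by family along the horizontal axis. Filled red points are genes whose groups differed by the F test, and the dashed and dotted lines mark the highest (7.53) and the median (4.95) negative control. All 6 sodium channel pores lie between 3.50 and 5.12, and 10 genes lie above the dashed line.

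Of the remaining 61 genes 58 lay within the range of the negative controls and 3 below it (Trpc6, Kcnd2 and Scn1a), so a level there may hold little signal of the gene. Sodium channel pores were dimmest as a family: Scn3a and Scn9a, the sodium channels known from mouse beta cells, averaged 4.06 and 3.58. Other genes with a known place in beta cells were dim as well. Ryr2, the ryanodine receptor of heart and beta cells, averaged 3.85, Trpc1 4.73, the acid-sensitive leak channel Kcnk3 4.94 and Cacna1a, the P/Q-type calcium pore, 5.70. Kcnma1, the large-conductance calcium-activated channel, stood at 6.25 and the calcium channel subunit Cacnb2 at 7.23. Kcnk16, Cacna1d, Cacnb3, Trpm2, Trpm4, Trpm5, Itpr1 and Itpr3 were not analysed here.

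Group means of the channel genes lay close together. The median range of their group means was 0.35 log2 units, against 0.50 over all tested probe sets, and 15 of 71 ranged over more than 0.5. Their median residual SD was also smaller, 0.131 against 0.180. A moderated F test over the 9 groups (limma, Benjamini-Hochberg adjustment over all 12422 probe sets, called at an adjusted p under 0.05) called 15 of the 71 genes, or 21.1%, where 37.9% of all probe sets were called. Of the 10 genes brighter than every negative control 5 were called, and of the 61 dimmer genes 10 were. In order of their adjusted p the 15 were Trpc4 (1.6e-05), Trpc4ap (5.4e-05), Kcnh2 (0.0013), Kcnab3, Kcns1, Cacna1c, Kcnma1, Cacng2, Kcnj9, Kcne1l, Kcnh1, Itpr2, Kcns2, Kcnq1 and Cacna1h. By family they were 5 of 16 voltage-gated potassium channels, 2 of 6 auxiliary potassium subunits, 2 of 7 calcium pores, 2 of 8 Trp genes and 1 each of the inward rectifier, calcium-activated, calcium auxiliary and store families. None of the 6 sodium pores and none of the 5 tandem-pore genes was called by this limma test, although Kcnk2 and Scn1a had unadjusted p of 0.0224 and 0.0495. Dimmer probe sets that do not stand for their genes were called in Scn1a, Kcna5 and Kcnab1. Their adjusted p in the same F test were 0.0075, 0.043 and 0.0028, at mean levels of 3.27, 3.93 and 4.67. With the acinar and leukocyte marker means as covariates 6 genes were called, and the share of all probe sets called in that fit is not given here.

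Trpc4 forms a receptor-operated calcium-permeable channel, and its gene lies at chr3:54155584-54318471. Its probe set stood at 6.32, 6.63 and 6.78 in untreated arrays, and at 6.28, 6.31 and 6.40 at 24 h. After 21 days it read 7.34, 7.15 and 6.94, after 2 days off 8.00, 7.48 and 7.41, after 4 days off 7.93, 7.67 and 7.74, and after 6 days off 6.72, 7.51 and 7.29. Up to 24 h all arrays lay at or below 6.84, and from 21 days on all lay above it except 1 array at 6 days off. At 21 days Trpc4 was 0.81 ± 0.19 (SE) log2 units, or 1.76-fold, above 24 h (adjusted p = 0.0055, limma), and this was the 1 change of the 24 called below that stayed called whichever array was left out. With the acinar and leukocyte marker means as covariates it was 0.40 with an adjusted p of 0.335. Against untreated the 21 day rise was 0.57 (adjusted p = 0.0531) and was not called, although the arrays did not overlap. Neither the 0.49 from 21 days to 2 days off (adjusted p = 0.238) nor the 0.64 to 4 days off (adjusted p = 0.0537) was called. At 6 days off Trpc4 remained 0.60 ± 0.19 above untreated (adjusted p = 0.0488), with overlapping arrays. That call ended without untreated replicate 1 or 2 or without 6 days off replicate 2 or 3, where the rise was 0.47, 0.62, 0.43 and 0.54.

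Trpc4ap is known in human cells as part of a ubiquitin ligase that acts on Myc proteins, and its gene lies at chr2:155634277-155692384. It was the brightest member and the 1 gene called at 4 h, a call that was lost in 6 of 10 alternatives beside leaving out single arrays. Untreated arrays read 10.75, 10.86 and 10.51, 2 h arrays 10.58, 10.53 and 10.46, 4 h arrays 10.42, 10.12 and 10.20, and 8 h arrays 10.29, 10.29 and 10.18. All 4 h and 8 h arrays thus lay below all untreated ones. It fell by 0.46 ± 0.11 on the log2 scale at 4 h, 1.38-fold lower (adjusted p = 0.0402), and by 0.45 ± 0.11 at 8 h (adjusted p = 0.0317). At 24 h it stood at 10.63, 10.46 and 10.52 and was not called. After 21 days it read 10.97, 10.79 and 10.94, which was 0.36 ± 0.11 above 24 h (adjusted p = 0.0198), and it stayed between 10.58 and 11.02 on the 9 arrays after dosing ended.

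Kcnh2 was highest in untreated islets, at 9.14, 9.15 and 9.02. No array of any other group reached 9. At 8 h it read 8.53, 8.73 and 8.56, a fall of 0.50 ± 0.11 or 1.41-fold (adjusted p = 0.0186). It was already 0.36 and 0.44 lower at 2 h and 4 h, with arrays apart from the untreated ones but adjusted p of 0.163 and 0.0561. At 24 h it stood at 8.80, 8.94 and 8.95. After 21 days the arrays read 8.82, 8.73 and 8.59, again lower than untreated, by 0.39 ± 0.11 (adjusted p = 0.0181). It was lower after withdrawal too: at 6 days off it read 8.50, 8.77 and 8.74, 0.43 ± 0.11 below untreated (adjusted p = 0.0113), and its lowest mean was 8.46 at 2 days off. These comparisons share the untreated arrays.

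**Figure D2:**
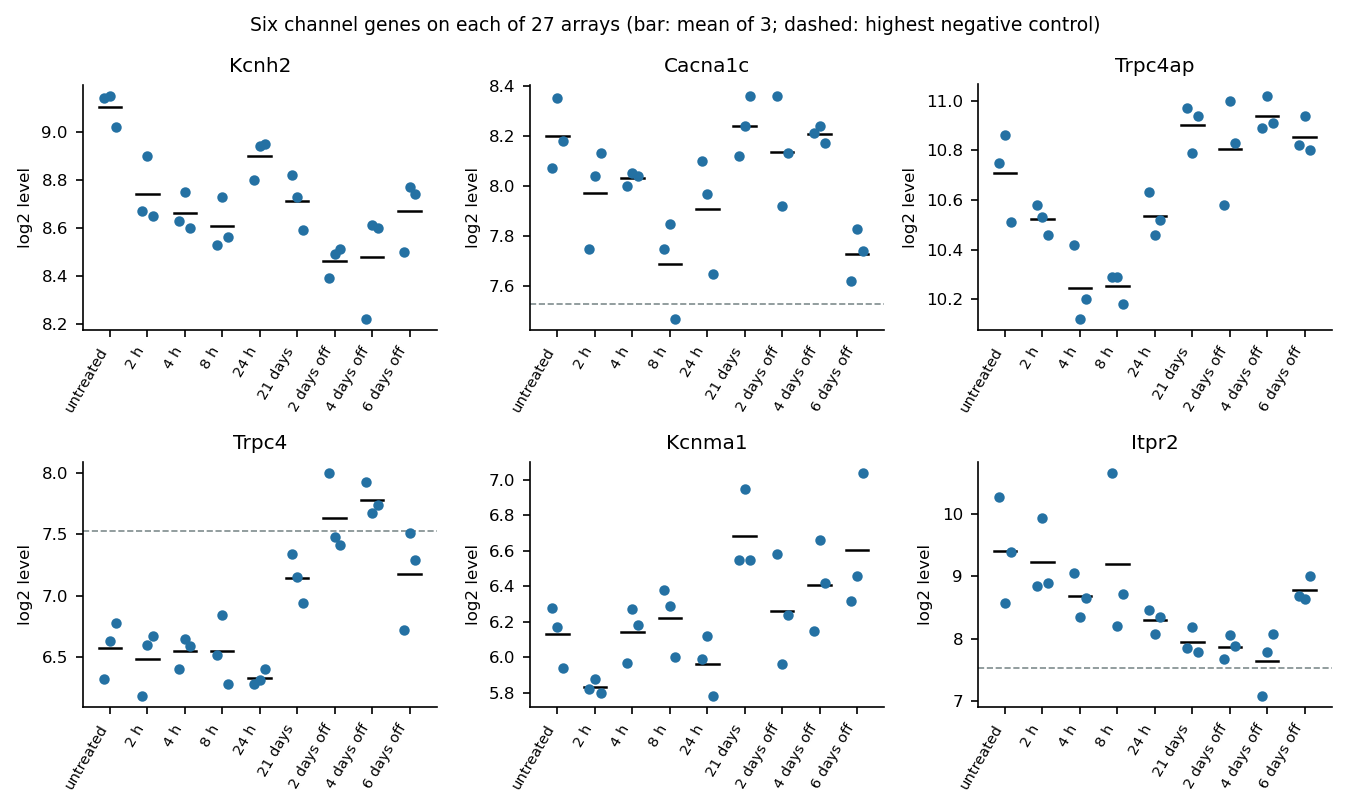
Log2 level of Kcnh2, Cacna1c, Trpc4ap, Trpc4, Kcnma1 and Itpr2 on every array, by group; each point is 1 array, each bar the mean of 3, and the dashed line the highest negative control (7.53) where it falls in the panel. The vertical scales differ. Kcnh2 is highest in untreated islets, Trpc4 rises from 21 days on, and Itpr2 spreads by more than a log2 unit within the untreated and 8 h groups.

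In the hours after injection few channel genes changed, and all those called fell. At 2 h 0 of 71 were called by limma, where 0.394% of all tested probe sets were. Only 3, or 4.23%, had an unadjusted p under 0.05, against 11.7% of all tested probe sets. At 4 h Trpc4ap was the 1 gene called, 1.41% of the channel genes against 0.797% of all tested probe sets. At 8 h Cacna1c, Kcnh2 and Trpc4ap had fallen, 4.23% against 1.70%, and all 3 are among the 10 bright genes. At 24 h again 0 were called by limma, against 1.38% of all tested probe sets. There 4, or 5.63%, had an unadjusted p under 0.05, against 11.8% of all tested probe sets.

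Cacna1c, at chr6:118587240-119197384, read 8.07, 8.35 and 8.18 in untreated arrays and 7.75, 7.85 and 7.47 at 8 h. All 8 h arrays lay below all untreated ones, and the fall was 0.51 ± 0.13, or 1.42-fold (adjusted p = 0.0491). The 2 h, 4 h and 24 h means of 7.97, 8.03 and 7.91 lay between. The 8 h fall rested on few arrays. Without 8 h replicate 3, an array rich in leukocyte markers, the falls of Cacna1c, Kcnh2 and Trpc4ap were 0.40, 0.47 and 0.42 and none was called. None was called either without untreated replicate 1, untreated replicate 2 or 8 h replicate 1. Without 8 h replicate 2 Trpc4ap was not called, and without untreated replicate 3 Cacna1c was not. The 4 h call of Trpc4ap ended without untreated replicate 1 or 2 or 4 h replicate 2 or 3, where the fall was between 0.38 and 0.44. Markers of other cells moved as well. At 4 h all 11 acinar markers lay above untreated, by a median of 1.31 with 0 called, and with acinar and leukocyte marker means as covariates the 4 h fall of Trpc4ap was 0.48 and not called (adjusted p = 0.0646). At 8 h the median of 11 acinar markers was 1.03 higher and that of 7 beta cell markers 0.53 lower than untreated, with 0 and 1 of them called. With those covariates Kcnh2 and Trpc4ap stayed called at 8 h, and Cacna1c did not (a fall of 0.43, adjusted p = 0.0701).

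Most other channel genes were slightly lower in the early groups, without being called: 58 of 71 lay below untreated at 2 h, 43 at 4 h, 58 at 8 h and 56 at 24 h. The median differences were small, -0.11, -0.03, -0.14 and -0.07, beside -0.07, -0.02, -0.06 and -0.04 over all tested probe sets. The 34 negative controls shifted likewise, by medians of -0.11, -0.04, -0.07 and -0.03. The 10 bright channel genes had medians of -0.16, -0.13, -0.25 and -0.15, with 9, 7, 9 and 9 of them below 0, and the 61 dimmer ones -0.11, -0.03, -0.11 and -0.06. Among uncalled genes whose arrays did not overlap, the largest fall at 8 h was 0.33 in Kcnu1, a potassium channel known from sperm (adjusted p = 0.216), and the largest rise 0.09 in Scn1a, a sodium channel of the brain (adjusted p = 0.605). At 24 h the largest such fall was 1.11 in Itpr2 (adjusted p = 0.318), and no such rise was found at 2 h, 4 h or 24 h.

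**Figure D3:**
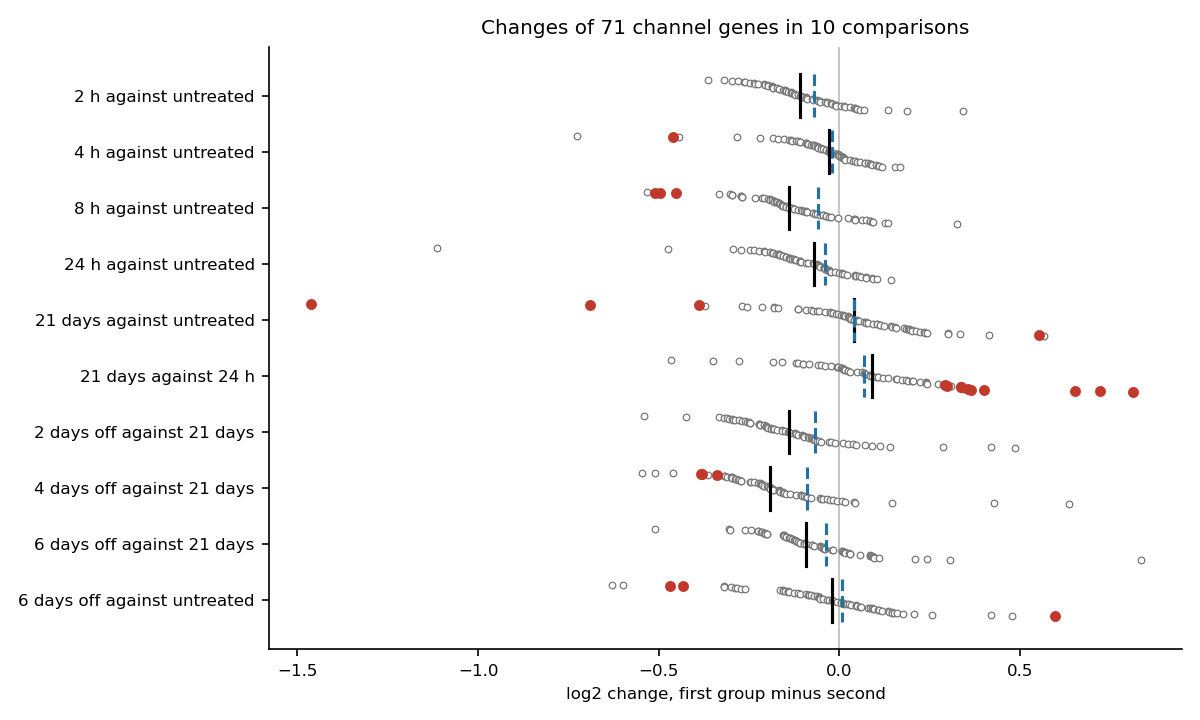
Log2 change of the 71 channel genes in each of 10 comparisons, first group minus second; each point is a gene, red where called at an adjusted p under 0.05. The black bar is the median of the 71 and the dashed blue bar the median of all 12422 tested probe sets. Called genes lie to the left at 4 h and 8 h and to the right at 21 days against 24 h.

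After 21 days of dosing, 1 channel gene had risen and 3 had fallen against untreated islets. These 4 are 5.63% of the channel genes, against 14.6% of all tested probe sets. Kcnma1, at chr14:23292288-24005110, rose from 6.28, 6.17 and 5.94 to 6.55, 6.95 and 6.55, by 0.55 ± 0.18 or 1.47-fold (adjusted p = 0.0453). Its arrays did not overlap, but both groups lay within the negative control range. Kcnh2 fell, as described above. The other falls, in Itpr2 and Kcnj9, were each called on a single probe set of the gene.

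Itpr2 has 4 probe sets on the array. The brightest read 10.27, 8.57 and 9.38 in untreated arrays and 7.85, 8.19 and 7.79 at 21 days, a fall of 1.46 ± 0.46 or 2.76-fold (adjusted p = 0.0363). Its residual SD of 0.606 was the largest of all members, and at 8 h its 3 arrays read 10.65, 8.21 and 8.72. The next brightest probe set differed by -0.37, without overlap of the arrays, and was not called (adjusted p = 0.239). The others differed by -0.02 and -0.08 at levels within the negative controls. Kcnj9, a G protein-gated inward rectifier, read 7.59, 8.59 and 7.66 in untreated arrays and 7.33, 7.21 and 7.23 at 21 days. The fall was 0.69 ± 0.23 (adjusted p = 0.0482). Without untreated replicate 2 it was 0.37 and not called (adjusted p = 0.288), and the other probe set of Kcnj9 differed by 0.14 the opposite way (adjusted p = 0.486). In the same comparison a dimmer probe set of Kcnab1, a beta subunit of Shaker-type channels, fell by 0.64 (adjusted p = 0.0052), while the brighter one that stands for the gene was not called.

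**Figure D4:**
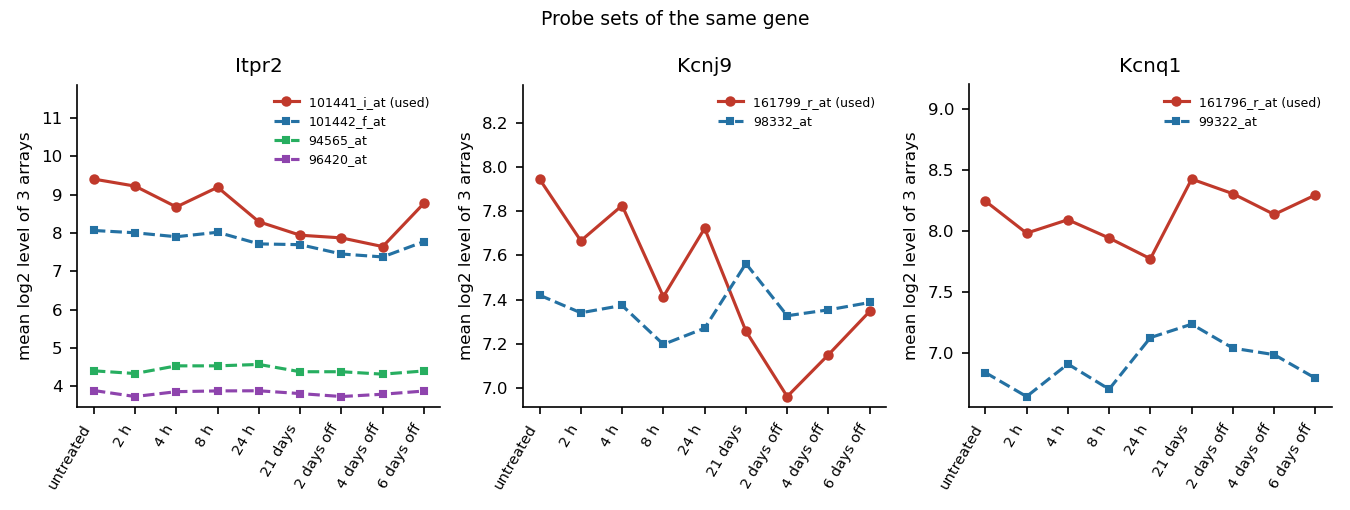
Mean log2 level of 3 arrays by group for each probe set of Itpr2, Kcnj9 and Kcnq1; the solid red line is the probe set used for the gene and the dashed lines its other probe sets. The red line of Itpr2 drops from 9.41 in untreated islets to 7.94 at 21 days while the next brightest goes from 8.07 to 7.70, and the lines of Kcnj9 cross.

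The count of 4 at 21 days became 0 to 3 when 1 array was left out. It was 0 without 21 days replicate 3, 1 without 21 days replicate 1 or 2 or untreated replicate 2, 2 without untreated replicate 1, of which only Kcnj9 is among the 4, and 3 without untreated replicate 3, of which Kcnh2 and Kcnj9 are. With acinar and leukocyte marker means as covariates Kcnh2 alone of the 4 stayed called, and Kcna6 was called besides. Beside these calls, 4 of 7 beta cell markers were called lower at 21 days with a median of -1.01, and the 11 acinar markers had a median of -1.95 with 0 called; the part of either in the channel values was not tested beyond that covariate fit. The largest changes without overlap that were not called were the Trpc4 rise given above and a fall of 0.27 in Kcnab3, another Shaker-type beta subunit (adjusted p = 0.0906). The panel of beta cell genes otherwise showed no call: Scn3a was 0.41 higher at 21 days than in untreated islets (adjusted p = 0.0527), at levels of 4.36 and 3.94.

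Against 24 h, the 21 day islets had 10 channel genes higher and 0 lower, 14.1% of the 71 against 20.8% of all tested probe sets, of which 1441 were higher and 1146 lower. An unadjusted p under 0.05 (limma) was reached by 19 channel genes, or 26.8%, against 34.6% of all tested probe sets. The largest rises were those of Trpc4 and of Kcnma1, which rose by 0.72 ± 0.18 or 1.65-fold (adjusted p = 0.0083). Kcnma1 read 5.99, 6.12 and 5.78 at 24 h against 6.55, 6.95 and 6.55. Kcnq1 rose by 0.65 ± 0.16 (adjusted p = 0.0080), from 8.08, 7.78 and 7.45 to 8.44, 8.65 and 8.18. Its other probe set differed by 0.11 (adjusted p = 0.675).

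The remaining 7 rises were between 0.29 and 0.40. They were Trpc4ap at 0.36, Trpm7 at 0.40, a magnesium-permeable channel fused to a kinase, Trpm1 at 0.30, a channel of retina and pigment cells, Ryr3 at 0.36, and the potassium channel genes Kcna6 at 0.29, Kcnk7 at 0.34 and Kcns2 at 0.34. In none of the 10 did the arrays of the 2 groups overlap. However, 8 of the 10 lay below the highest negative control in mean level, and the 34 negative controls were themselves higher at 21 days by a median of 0.10, 24 of them above 0. The median of the 71 channel genes was 0.09 and that of all tested probe sets 0.07. The Gapdh 3′ minus 5′ difference did not overlap between these groups, and with it as a covariate Kcnk7, Kcns2, Ryr3, Trpm1 and Trpm7 were no longer called. Uncalled changes without overlap were at most 0.40 upward in Kcnk3 (adjusted p = 0.0921) and 0.47 downward in Kcnj9 (adjusted p = 0.156).

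These groups also differed in acinar markers. All 11 acinar markers were lower at 21 days than at 24 h and 10 were called, with a median difference of -4.39, and the acinar mean was 11.46 or more on every 24 h array and 7.88 or less on every 21 day array. With acinar and leukocyte marker means as covariates, 1 of the 71 channel genes was called, Kcna6 (a rise of 0.46, adjusted p = 0.0499, limma). Because the acinar mean separates the 2 groups fully, this fit can hardly tell acinar content from the length of dosing. The share of all tested probe sets called in it is not given here, so the lost calls cannot be read as particular to channel genes. Of 8 smooth muscle and pericyte markers, cells in which Trpc4 and Kcnma1 are known to be expressed, 2 were called higher at 21 days and all 8 lay above 24 h, by a median of 0.42. Their mean was between 7.74 and 8.25 on the 21 day arrays and between 7.06 and 7.67 on those at 24 h, and their part in the rise was not tested. The 9 neuron and Schwann cell markers had a median difference of -0.0033, and the 8 striated muscle markers all lay below the highest negative control. Both alpha cell markers lay above 24 h with a median of 0.48, and Ppy was 1.10 higher, with 0 called. Above 24 h also lay 3 of 4 mast cell and 5 of 8 endothelial markers, with medians of 0.215 and 0.085. The 7 beta cell markers had a median of -0.72 with 2 called lower, and the 3 duct markers -0.36 with 1 called lower. The part of these cells was not tested either. The count of 10 fell to 3 without 24 h replicate 2, 4 without 24 h replicate 3, 5 without 21 days replicate 1 and 2 without 21 days replicate 2.

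**Figure D5:**
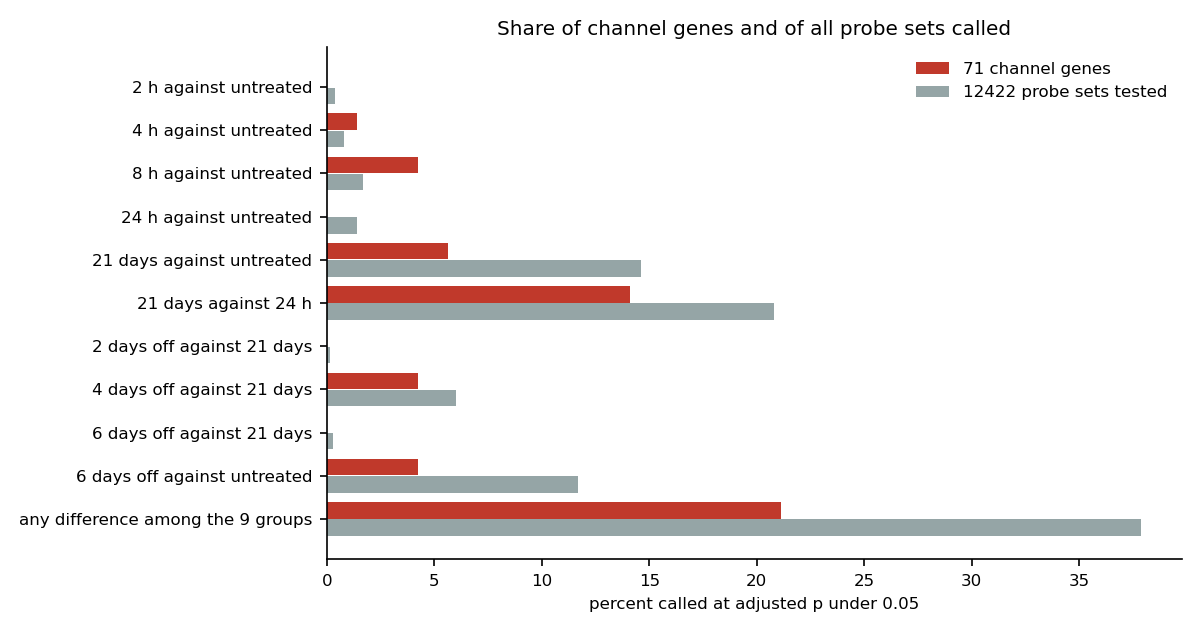
Percent of the 71 channel genes (red) and of all 12422 tested probe sets (grey) called at an adjusted p under 0.05, for 10 comparisons and for the F test over the 9 groups; bars start at 0. The red bar is longer than the grey at 4 h (1 gene) and 8 h (3 genes) and shorter in every other row.

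When dosing stopped, few channel genes passed the test against the 21 day islets. At 2 days off 0 of 71 were called by limma, where 0.153% of all tested probe sets were. However, 20, or 28.2%, reached an unadjusted p under 0.05, against 16.1% of all tested probe sets. At 4 days off 3 were called, all lower, 4.23% against 6.01% of all tested probe sets. At 6 days off 0 were called by limma, against 0.274% of all tested probe sets. Here 7, or 9.86%, had an unadjusted p under 0.05, against 13.8% of all tested probe sets.

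The 3 genes lower at 4 days off were Cacng2, Kcnc1 and Kcnk2, each with a mean over all arrays below the highest negative control. Cacng2, known as stargazin, an auxiliary subunit of calcium channels and glutamate receptors, read 7.61, 7.59 and 7.58 at 21 days and 7.23, 7.12 and 7.28 at 4 days off. It fell by 0.38 ± 0.10 (adjusted p = 0.0300). Kcnc1, a fast delayed rectifier, fell by 0.38 ± 0.11 (adjusted p = 0.0434), from 6.94, 6.90 and 6.85 to 6.53, 6.49 and 6.53. Kcnk2, a stretch-sensitive tandem-pore channel, fell by 0.34 ± 0.10 (adjusted p = 0.0456), from 5.60, 5.82 and 5.39 to 5.15, 5.23 and 5.41, with overlapping arrays. Without 21 days replicate 1 or 2, or 4 days off replicate 1 or 2, 0 were called. Without 4 days off replicate 3 it was 1, and without 21 days replicate 3 it was 5. With acinar and leukocyte marker means as covariates Kcnc1 and Kcnk2 were not called (adjusted p = 0.0503 and 0.0542), and with the Gapdh difference as a covariate Kcnc1 was not (a fall of 0.32, adjusted p = 0.112). In the same comparison 3 of 17 leukocyte, 0 of 4 mast cell and 1 of 8 smooth muscle and pericyte markers lay above 21 days, with medians of -0.23, -0.35 and -0.26. Other lists went the other way. Above 21 days lay 6 of 7 beta cell, 10 of 11 acinar and 5 of 8 endothelial markers, with medians of 0.35, 0.27 and 0.16. Both alpha and both delta cell markers lay above it too, with medians of 1.05 and 0.15. The part of any of these cells in the channel values was not tested beyond the covariate fit.

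These falls stood beside small downward differences in most channel genes, bright and dim, and in the negative controls. At 4 days off 64 of the 71 channel genes lay below 21 days, with a median of -0.19 beside -0.09 over all tested probe sets, and 33 of the 34 negative controls lay below 0 with a median of -0.13. At 2 days off 60 of 71 were lower with a median of -0.14, beside -0.07 over all tested probe sets and -0.16 in the negative controls. At 6 days off 49 were lower, with a median of -0.09 beside -0.04 and -0.10. The 10 bright channel genes had medians of -0.17, -0.23 and -0.13 at 2, 4 and 6 days off, with 10, 9 and 9 of them below 0, against -0.14, -0.18 and -0.08 for the 61 dimmer ones. Over the 9 groups, 29 of the 71 genes had their highest group mean at 21 days and 19 their lowest at 4 days off. The same shares were not counted over all tested probe sets, so these counts cannot be read as particular to channel genes. Among uncalled genes without overlap, Kcnk3 was 0.55 lower at 4 days off (adjusted p = 0.0523) and Kcna5, a voltage-gated channel, 0.33 lower at 2 days off (adjusted p = 0.372). At 6 days off Cacna1c was 0.51 lower than at 21 days (adjusted p = 0.0911) and Itpr2 0.83 higher (adjusted p = 0.437).

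At 6 days off, 1 channel gene was higher and 2 were lower than in untreated islets, 4.23% against 11.7% of all tested probe sets. Trpc4 was the higher one, and Kcnh2 and Cacna1c the lower ones. Cacna1c had stood at 8.12, 8.24 and 8.36 after 21 days and at 8.21, 8.24 and 8.17 after 4 days off, overlapping its untreated arrays. At 6 days off it read 7.62, 7.83 and 7.74, which was 0.47 ± 0.13 below untreated (adjusted p = 0.0226), and no array overlapped. Replicate 1 of this group was rich in leukocyte markers. Without it the Cacna1c fall was 0.41 (adjusted p = 0.0850) and that of Kcnh2 0.35 (adjusted p = 0.0647), neither called, and the count was 1. With the Gapdh 3′ minus 5′ difference as a covariate the Cacna1c fall was 0.42 and not called (adjusted p = 0.0644). The count was also 1 without untreated replicate 2 and 2 without untreated replicate 1. Against untreated, 3 of 7 beta cell markers were called lower at 6 days off, with a median of -0.64. The largest uncalled changes without overlap were 0.48 upward in Kcnma1 (adjusted p = 0.0976) and 0.60 downward in Kcnj9 (adjusted p = 0.0987).

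Of the 15 genes called by the F test 5 passed in none of the 10 comparisons. Kcnab3 went from 6.53, 6.45 and 6.49 in untreated arrays to 6.07, 6.03 and 5.99 at 2 days off and 6.03, 6.09 and 6.04 at 4 days off. Kcns1, a silent subunit that modifies delayed rectifiers, had group means from 6.13 at 4 h down to 5.62 at 4 days off. Kcne1l, an auxiliary subunit, went from 7.15 in untreated islets to 6.77 at 4 days off, and Kcnh1, the EAG channel, from 6.66 at 24 h to 6.25 at 2 days off. Cacna1h, a T-type calcium pore, went from 6.35 in untreated islets to 5.95 at 4 days off. All 5 thus had their lowest mean 2 or 4 days after dosing ended, where the negative controls stood below their 21 day level as well.

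The other genes of the excitation pathway, a list of 62 transporters, calcium pumps, buffers, kinases and chloride, cyclic-nucleotide-gated and acid-sensing channels, had its calls after the long course. Of its 41 measured genes 0 were called at 2, 4, 8 or 24 h. At 21 days 6 had risen and 6 had fallen against untreated, 29.3% of the 41 beside 14.6% of all tested probe sets. Atp2a3, a calcium pump of the endoplasmic reticulum, fell by 1.45 ± 0.23 (adjusted p = 0.00039), and its relative Atp2a2 by 0.71 ± 0.21 (adjusted p = 0.0272). Fkbp1b, which binds ryanodine receptors, fell by 1.60 ± 0.19 (adjusted p = 2.7e-05). The others that fell were the pacemaker channel Hcn2, Clcn7 and Abcc8. Clcn3, a chloride transporter of intracellular vesicles, rose by 1.31 ± 0.25 (adjusted p = 0.0013), the calcium buffer Calb1 by 1.04 ± 0.28 (adjusted p = 0.0153) and the sodium-calcium exchanger Slc8a1 by 0.91 ± 0.25 (adjusted p = 0.0165). The kinases Camk2b and Camk4 and the acid-sensing channel Asic2 also rose. Against 24 h 8 rose and 9 fell, 41.5% beside 20.8% of all tested probe sets. At 4 days off 3 rose and 1 fell against 21 days, 9.76% beside 6.01%, and at 6 days off 3 were higher and 4 lower than untreated, 17.1% beside 11.7%. This list was chosen with earlier results of these data known. At 2 and 6 days off 0 were called against 21 days (limma).

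The ATP-sensitive channel itself split by subunit. The sulfonylurea receptor Abcc8 fell by 1.88 ± 0.30 at 21 days (adjusted p = 0.00042) and was 1.69 ± 0.30 higher again at 4 days off (adjusted p = 0.0085), while the pore Kcnj11 stood at 8.29 in untreated islets and 8.30 at 21 days and was called in none of the 10 comparisons.

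Counted over all comparisons, 17 of the 71 channel genes were called at least once, in 24 changes, and 54 in none. A permutation of arrays for a single gene could not have reached the threshold, since 3 arrays against 3 give no exact p below 0.1.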

How the data were processed

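Islet RNA was amplified linearly in 2 rounds and hybridised with a biotin label to single-colour Affymetrix mouse arrays, per the labels. The deposited values are on the log2 scale, from 2.37 to 14.47, made by the authors with RMA according to the submitters' processing notes, which name no version or settings. RMA adjusts background, equalises arrays and summarises probes, so values near background are compressed, and the number of arrays limits precision. Values were used as deposited. Of 12488 probe sets 66 controls were left out; of the 12422 tested 10833 have 1 gene symbol in the platform annotation, 396 several and 1193 none.

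A model of 9 group means was fitted to all 27 arrays with limma 3.58.1 in R 4.3.3 (lmFit and eBayes, 18 residual degrees of freedom). Two-sided p-values were adjusted by Benjamini-Hochberg over all tested probe sets, and calls needed an adjusted p below 0.05, whatever the fold. ± after a change is the SE from this fit. The fit was tested on simulated data. Same-numbered arrays of different groups were checked for pairing: 36 of 108 such pairs had deviations correlated above 0.1 (median 0.024, highest 0.51). This did not settle whether numbers mark pairs, and they were not used as pairs in the main fit.

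The members, gene lists and tests were chosen with earlier results of these data known. Named with values were all members called in a comparison or by the F test, in each comparison the largest uncalled rise and fall without overlap, and a panel of beta cell channel genes. All 71 symbols were found in the RefSeq gene table (GRCm38.p6), which gave positions. Alternatives were the replicate block, quantile normalization, leaving out the dimmest 40% of probe sets, a variance trend, array weights, means over the probe sets of a gene, the compared arrays only and each array left out in turn.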

Additional observations from a re-analysis of the deposited data

How the results depend on the processing

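None of the 24 called changes reversed under any alternative. They had been selected as called on these same arrays, so a reversal was unlikely from the start. No alternative used another probe set alone, and that of Kcnj9 differed the opposite way at 21 days against untreated. Calls were not stable: 1 kept its call whichever array was left out (Trpc4 at 21 days against 24 h). Under every other alternative 1 kept it (Cacng2 at 4 days off), and 0 kept it throughout. The following 3 alternatives were chosen after seeing the data: leaving out the 3 arrays rich in leukocyte markers, acinar and leukocyte marker means as covariates, and the difference between Gapdh 3' and 5' signals as a covariate. Whether replicate numbers pair the arrays was not settled. In their deviations 14 of 27 arrays correlated best with an array of their own number. The median correlation was 0.024 for same and -0.013 for different numbers. With numbers as a replicate block 18 of the 24 calls were kept. The counts were then 1 at 4 h (Kcnh2 in place of Trpc4ap), 2 at 8 h and 3 at 21 days. They were 10 at 21 days against 24 h and 1 instead of 3 at 4 days off. At 6 days off against untreated the count was 2, and by the F test 16. Fitting the compared arrays alone, with 4 residual degrees of freedom, gave 0 at 4 h, 0 at 8 h, 1 at 21 days, 5 at 21 days against 24 h and 0 at 6 days off against untreated. Array weights, whose estimation stopped before converging, gave 7 at 21 days, 21 at 21 days against 24 h, 3 at 2 days off, 26 at 4 days off, 5 at 6 days off against 21 days, 8 at 6 days off against untreated and 36 by the F test. Quantile normalization gave 0 at 4 h and 1 at 4 days off, a variance trend 0 at 4 h and 1 at 8 h, and means over the probe sets of a gene 2 at 4 h. Without the dimmest 40% of probe sets, which removes members too, the counts were 2 at 4 h and 5 at 21 days against 24 h. Without the leukocyte-rich arrays they were 0 at 4 h, 0 at 8 h and 1 at 6 days off against untreated. With the marker covariates, where 8 of the 24 calls were kept, they were 1 at 4 h (Kcnh2 in place of Trpc4ap), 2 at 21 days (Kcnh2 and Kcna6), 1 at 21 days against 24 h and 6 by the F test. With the Gapdh covariate 17 of the 24 calls were kept. Leaving out each array in turn gave 0 to 1 at 4 h, 0 to 3 at 8 h, 0 to 3 at 21 days, 2 to 12 at 21 days against 24 h, 0 to 5 at 4 days off, 1 to 4 at 6 days off against untreated and 12 to 19 by the F test. The counts of 0 at 2 h and 24 h were 0 in every alternative. For none of these alternatives is the share of all tested probe sets called in the same fit given here. A changed count, such as those with array weights, therefore cannot be read as particular to channel genes. Where not stated otherwise the cause of a changed count was not tested. None of the 160 recomputed medians of the 71 genes moved beyond the spread between arrays of a group. This check could hardly fail. A median as small as -0.03 at 4 h could vanish or change sign within that spread. The replicate block, the variance trend and the compared arrays alone leave differences of group means unchanged. No stability of the medians is read from it. The main limit is signal: 61 of 71 members lie no higher than the brightest negative control, while 54 exceed the median one. In addition, the labels do not separate mouse, capture and amplification.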

Other observations

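Among members that were called nowhere, a few spread widely within a group; they were picked after their values were seen and carry no test of their own. Trpv2, a cation channel known from macrophages and other cells, read 7.14, 6.50 and 7.65 at 8 h, 7.04, 8.07 and 6.80 at 2 days off, and 7.65, 7.35 and 6.57 at 6 days off, but stayed between 6.69 and 6.95 on the arrays at 24 h, 21 days and 4 days off. Kcnn4, the intermediate-conductance calcium-activated potassium channel of lymphocytes, read 6.33, 6.95 and 6.12 at 2 days off and 7.01, 6.42 and 5.99 at 6 days off, against 6.42, 6.39 and 6.32 at 21 days. On the 3 arrays rich in leukocyte markers, 2 h replicate 1, 8 h replicate 3 and 6 days off replicate 1, Trpv2 read 7.26, 7.65 and 7.65 and Kcnn4 6.56, 6.49 and 7.01. The highest Trpv2 value of all arrays, 8.07, was on none of these but on 2 days off replicate 2, and 2 h replicate 3 read 7.29. Leukocyte marker means also varied among arrays under the 0.5 cutoff, from 7.04 to 7.86 within the 2 days off group. The part of leukocyte RNA in these values was not tested. Neither gene's groups differed by the F test (adjusted p = 0.482 and 0.419, limma).

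Cacna2d1, the alpha-2-delta subunit that brings calcium channels to the membrane, read 6.44, 7.01 and 5.89 at 21 days and 5.75, 6.04 and 6.90 at 6 days off, with a wide spread within both groups (F test adjusted p = 0.504, limma). Kcnj8, the ATP-sensitive potassium channel pore of pericytes and smooth muscle, had its highest mean at 2 h, 7.41, and its lowest at 21 days, 6.85 (F test adjusted p = 0.0861, limma). Its untreated mean was 7.23, and the untreated and 21 day arrays overlapped. Against untreated, 7 of 8 smooth muscle and pericyte markers lay higher at 21 days, by a median of 0.13 with 0 called. The part of these cells in the Kcnj8 values was not tested.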
